A study of Homo sapiens with 6 samples.

Results

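The 9 genes described here encode proteins that bring iron into the cell, reduce and store it, carry it into mitochondria and sense it: TFRC, SLC11A2, STEAP3, SLC25A37, ABCB10, FTH1, FTL, ACO1 and IREB2. They were chosen by name, and all 9 were found among the 28395 genes of the deposited normalized count table and the 60131 genes of the deposited RPKM table. RNA was sequenced from K562, an established human leukaemia line with erythroid and megakaryocytic features, in 3 libraries labelled wild type for RUNX1 (WT) and 3 labelled RUNX1 R320*. RUNX1 is a transcription factor of blood cells, and R320* denotes a stop in place of an arginine codon. All were grown in RPMI-1640 with fetal bovine serum, and no treatment is named for any. Nothing in the labels names clones or separate cultures: each p-value here therefore rests on the spread between libraries, which may be technical. How the stop codon was introduced is not given in the sources used here.

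Red cell precursors take up more iron than most cells, because haem needs it. Transferrin-bound iron enters through the transferrin receptor (TFRC), is reduced in the endosome by STEAP3 and leaves it through the divalent metal transporter DMT1 (SLC11A2). Mitoferrin-1 (SLC25A37), which ABCB10 is known to stabilise, carries it across the inner mitochondrial membrane, and ferritin, a shell of heavy (FTH1) and light (FTL) chains, stores the excess. The iron regulatory proteins IRP1 (ACO1) and IRP2 (IREB2) bind hairpins in messenger RNAs, called iron-responsive elements, when iron is scarce: bound in a 5′ UTR they block translation, and bound in a 3′ UTR of the TFRC type they protect the transcript from decay.

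The libraries were similar in depth, with 29058471 to 31306435 reads assigned to genes. RUNX1 itself stood at 2908 to 2969 normalized counts in WT and at 5026 to 5261 in R320*, gene totals that do not show the stop codon and so do not check the labels. All 7 erythroid and megakaryocytic markers examined were expressed in every library, with a summed count of 95090 to 99460 in WT and 105500 to 129100 in R320*. HBG1 and HBG2, fetal globins, were higher in every R320* library, while GATA1, the erythroid transcription factor, was lower (8774 to 9119 in WT, 5946 to 6351 in R320*). Among markers of other cell types, CD2, PAX5, ELANE, CDH5 and KDR were at 0 in all 6 libraries. COL1A2 (2602 to 3431), CD3D (419 to 731) and EPCAM (2292 to 2348 in WT and 4989 to 5274 in R320*) were not, and EPCAM set the sum of the 4 epithelial markers (2296 to 2350 in WT, 5028 to 5274 in R320*). Sums of the other marker lists were 924 to 991 in WT and 630 to 728 in R320* for T cells, 85.8 to 111 and 101 to 132 for B cells, 54.4 to 69.8 and 13.7 to 17.9 for monocytes and granulocytes, 3417 to 3514 and 2687 to 2918 for fibroblasts, and at most 6.28 in any library for endothelium. The part of other cells in the results below was not tested.

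In R320* cells 6 of the 9 transcripts rose, 2 fell and 1 did not pass the test. A gene is said to rise or fall where the limma adjusted p of R320* against WT was below 0.05, on the scale of log2(normalized count + 1) and adjusted over all 14299 genes tested. In normalized counts the largest rises were those of the mitochondrial pair, ABCB10 and SLC25A37, followed by TFRC, and the larger of the falls was that of SLC11A2. In RPKM the order of these rises was SLC25A37 (log2 fold change 0.91), TFRC (0.54) and ABCB10 (0.40). Of all genes tested 53.7% were called, 26.4% higher and 27.4% lower, so the share of members called is to be read against a large background. The 9 members, all of which passed the filter on low counts, had a median log2 fold change of 0.24, against 0.01 over all genes tested. Their median absolute log2 fold change was 0.36, against 0.27. The libraries of the genotypes did not overlap for 8 of the 9 (6 higher and 2 lower), as for 59.8% of all genes tested (29.6% higher and 30.2% lower). In bulk RNA a change in the share of cells that express a gene cannot be told apart from a change in RNA per cell.

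**Figure D1:**
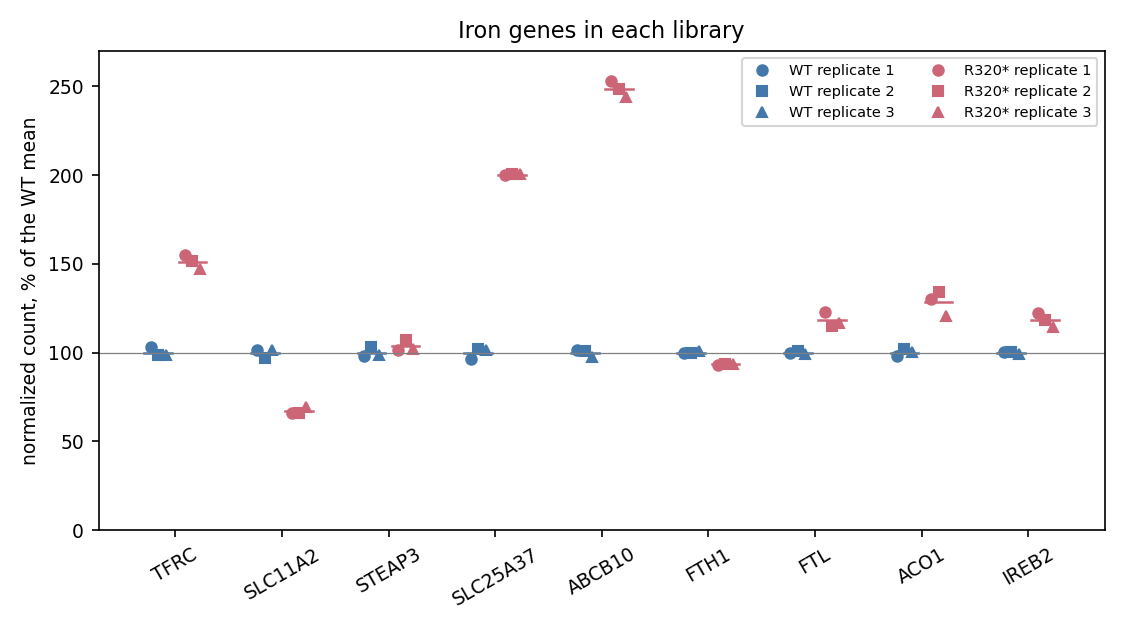
Normalized count of each of the 9 genes in each library, as a percentage of the gene's WT mean (y axis). Points are libraries, with the shape giving the replicate, and bars are means of 3; ABCB10 and SLC25A37 stand highest in R320*, above the WT mean by 148% and 100.3%, SLC11A2 stands lowest at 0.671 of it, and STEAP3 overlaps between the genotypes.

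Iron-responsive elements are shown first, because they set apart the members whose transcripts the iron regulatory proteins are known to bind. The UTRs of GENCODE 29 transcripts (GRCh38) were searched for a C, 5 bases of stem, the loop CAGTGN and 5 bases that pair with the stem, G-T pairs included. On the transcribed strand, FTH1 and FTL each held the pattern once in the 5′ UTR and TFRC held it 4 times in the 3′ UTR. SLC11A2 held it once in the 3′ UTR when 1 unpaired base was allowed in the second arm of the stem. In the sequences below, written 5′ to 3′ as DNA, capitals mark the bulged C and the 6 bases of the loop.
TFRC, chr3:196050979-196051008, minus strand: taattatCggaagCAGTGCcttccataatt
TFRC, chr3:196050575-196050604, minus strand: acattatCgggagCAGTGTcttccataatg
TFRC, chr3:196050510-196050539, minus strand: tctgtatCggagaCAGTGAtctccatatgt
TFRC, chr3:196050463-196050492, minus strand: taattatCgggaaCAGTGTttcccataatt
SLC11A2, chr12:50988269-50988298, minus strand: tagccatCagagcCAGTGTgtttctatggt
FTH1, chr11:61967574-61967603, minus strand: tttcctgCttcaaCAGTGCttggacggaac
FTL, chr19:48965334-48965363, plus strand: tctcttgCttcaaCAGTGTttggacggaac
The fully paired pattern was present in a 5′ UTR of 0.19% of genes with one and in a 3′ UTR of 0.694%, and the pattern with 1 unpaired base in a 3′ UTR of 1.17%. IREB2 also held the latter, and a match is a description of the letters, not a shown binding site. STEAP3, ABCB10 and ACO1 did not match, and no search result is given for SLC25A37.

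TFRC, the receptor that takes up transferrin-bound iron (Entrez gene 7037, chromosome 3, 196049284 to 196082090, GRCh38), rose by 51.2%. WT libraries held 26248, 25128 and 25092 normalized counts, and R320* libraries held 39454, 38622 and 37512. The lowest R320* library thus stood well above the highest WT library. limma gave a log2 fold change of 0.60 with an SE of 0.03 (adjusted p = 2.34e-10). In the RPKM table the level rose from 247 ± 2.53 to 361 ± 5.90 (SD, n = 3), a log2(RPKM + 0.1) fold change of 0.54 (limma adjusted p = 4.67e-05). Reads of TFRC made up 0.0824% to 0.0864% of assigned reads in WT and 0.126% to 0.131% in R320*.

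SLC11A2, which moves ferrous iron out of the endosome (Entrez gene 4891, chromosome 12, 50952263 to 51028886), went the other way. It fell from 2533, 2418 and 2523 normalized counts in WT to 1645, 1645 and 1724 in R320*, with no overlap. By limma the log2 fold change was -0.58 with an SE of 0.05 (adjusted p = 3.91e-08), and in RPKM it was -0.54 (adjusted p = 0.000334). TFRC and SLC11A2, both with a 3′ element, therefore differed between the genotypes by similar amounts in opposite directions. These are gene totals, so they do not show the level of the SLC11A2 transcripts that hold the element (5 had the match) apart from any others. SLC11A2 lies in a stretch of chromosome 12 (49227926 to 53293638) most of whose tested genes fell. Of the 50 nearest, 25 on each side, 35 fell and 3 rose, with a median log2 fold change of -0.56, close to that of SLC11A2 itself. With 10 genes on each side the median was -0.59. A change of SLC11A2 alone and a change of its chromosomal neighbourhood cannot be told apart from its level.

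STEAP3, the endosomal ferrireductase (Entrez gene 55240, chromosome 2, 119223834 to 119265652), did not pass the test. Normalized counts of 2790, 2940 and 2803 in WT overlapped those of 2890, 3053 and 2906 in R320*. limma put the log2 fold change at 0.05 with a 95% interval from -0.04 to 0.15 (adjusted p = 0.342). In RPKM it was -0.01, with an interval from -0.16 to 0.14 (limma adjusted p = 0.930). Both intervals leave out a change of the size seen in TFRC or SLC11A2. The 3 steps of transferrin iron uptake thus had 1 member higher, 1 lower and 1 not called.

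Around the other members the medians lay closer to 0. Medians over 25 genes on each side were 0.04 around TFRC, 0.01 around STEAP3, -0.02 around SLC25A37, 0.14 around ABCB10, 0.12 around FTH1, -0.03 around FTL, -0.04 around ACO1 and 0.03 around IREB2. Around ABCB10 20 of the 50 neighbours rose and 6 fell, and the nearest 3 on each side all rose, with log2 fold changes of 0.25 to 0.99, against 1.31 for ABCB10. The fourth on each side fell (these nearest genes were singled out after their values were seen). Around TFRC 11 rose and 12 fell, and around SLC25A37 12 rose and 16 fell. With 10 genes on each side the median around SLC25A37 was -0.20 and that around IREB2 was 0.18.

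**Figure D2:**
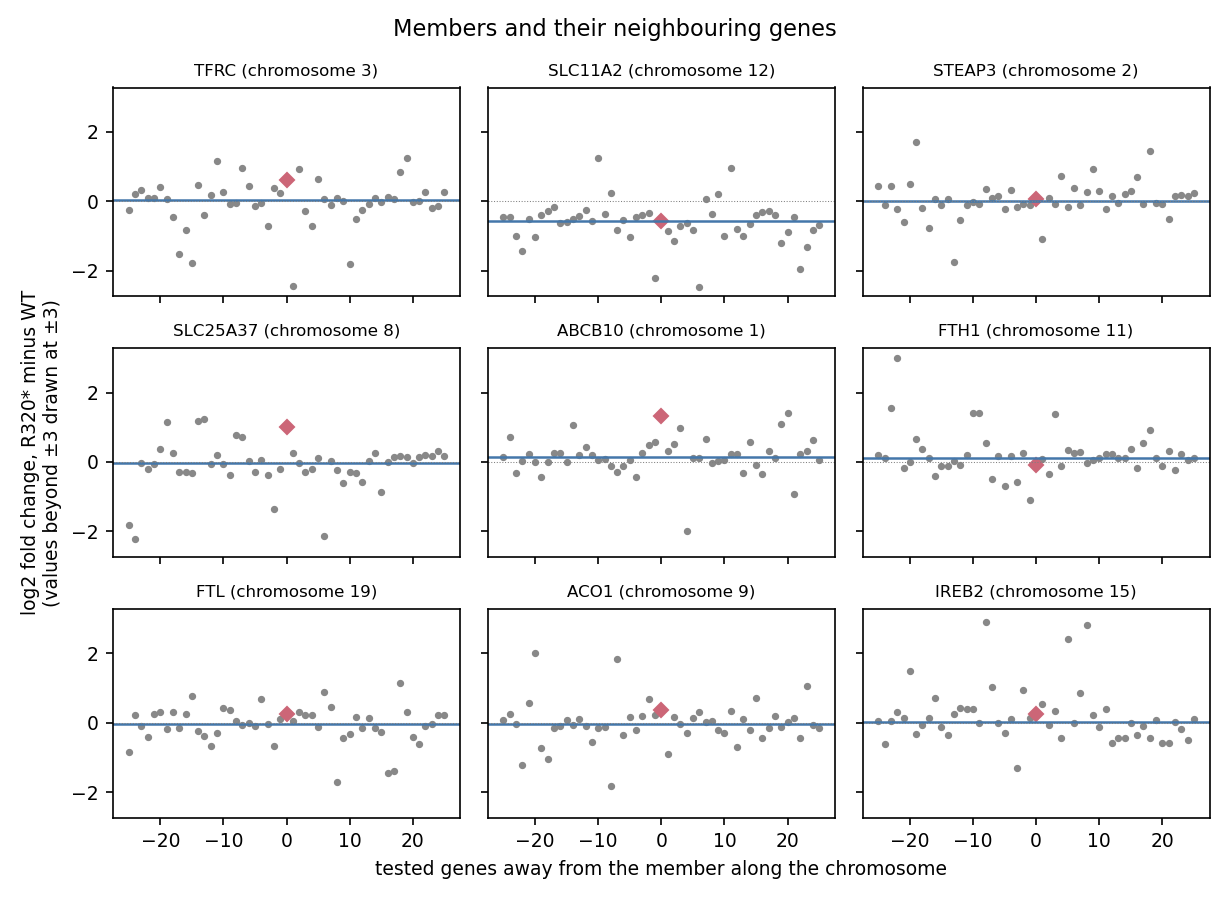
Log2 fold change, R320* minus WT, of each member (diamond) and of the 25 tested genes on each side of it (grey points), by the number of genes away along the chromosome; the line is the median of the neighbours, and values beyond 3 in either direction are drawn at 3. SLC11A2 sits on its neighbours' median of -0.56, while TFRC, SLC25A37 and ABCB10 sit above medians of 0.04, -0.02 and 0.14.

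SLC25A37, the mitochondrial iron importer mitoferrin-1 (Entrez gene 51312, chromosome 8, 23528956 to 23575463), rose by 100.3% in R320* cells. The WT libraries held 5179, 5468 and 5433 normalized counts, against 10710, 10743 and 10751 in the R320* libraries. The coefficient of variation was 0.205% in R320* and 2.94% in WT, so the gap between the genotypes was far wider than the spread in either. limma gave a log2 fold change of 1.00 with an SE of 0.04 (adjusted p = 8.79e-13). In the RPKM table the means were 63.9 ± 3.65 for WT and 119.6 ± 1.39 for R320* (SD, n = 3), with a log2 fold change of 0.91 (limma adjusted p = 4.67e-05).

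ABCB10, an ATP-binding cassette transporter of the inner mitochondrial membrane (Entrez gene 23456, chromosome 1, 229516582 to 229558707), had the largest fold of the 9 in normalized counts. WT libraries had 2442, 2420 and 2342 and R320* libraries 6069, 5967 and 5856. The R320* mean was 2.48-fold higher, and limma's log2 fold change was 1.31 with an SE of 0.04 (adjusted p = 1.46e-13). In RPKM the WT libraries stood at 53.9, 63.1 and 54.9 and the R320* libraries at 78.8, 74.9 and 73.2. The genotypes did not overlap in that table either, but the rise was only 1.32-fold, with a log2 fold change of 0.40 and an SE of 0.07 (limma adjusted p = 0.00501). The 95% intervals of the log2 fold change, 1.23 to 1.40 in counts and 0.24 to 0.57 in RPKM, do not meet.

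In the RPKM table as a whole 6 members rose, 1 fell and 2 (STEAP3 and FTH1) did not pass the test, where 31.9% of the 17769 genes tested were called, 15.1% higher and 16.8% lower. Libraries of the genotypes did not overlap for 7 members, 6 higher and 1 lower, as for 47% of genes tested (22.9% higher and 24.1% lower). No other member differed between the tables as ABCB10 did. Normalized counts per unit of RPKM were 42.1 for ABCB10 in WT and 78.9 in R320*, a ratio of 1.87, whereas the same ratio was between 0.939 and 1.07 for the other 8. The gap between the log2 folds of ABCB10 was 0.91, larger than for 98% of the 11903 genes compared in both tables, whose median absolute gap was 0.08. The direction of ABCB10 is thus the same in both tables and its size is not settled by them. The cause was not tested, and transcript isoforms were not analysed here.

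**Figure D3:**
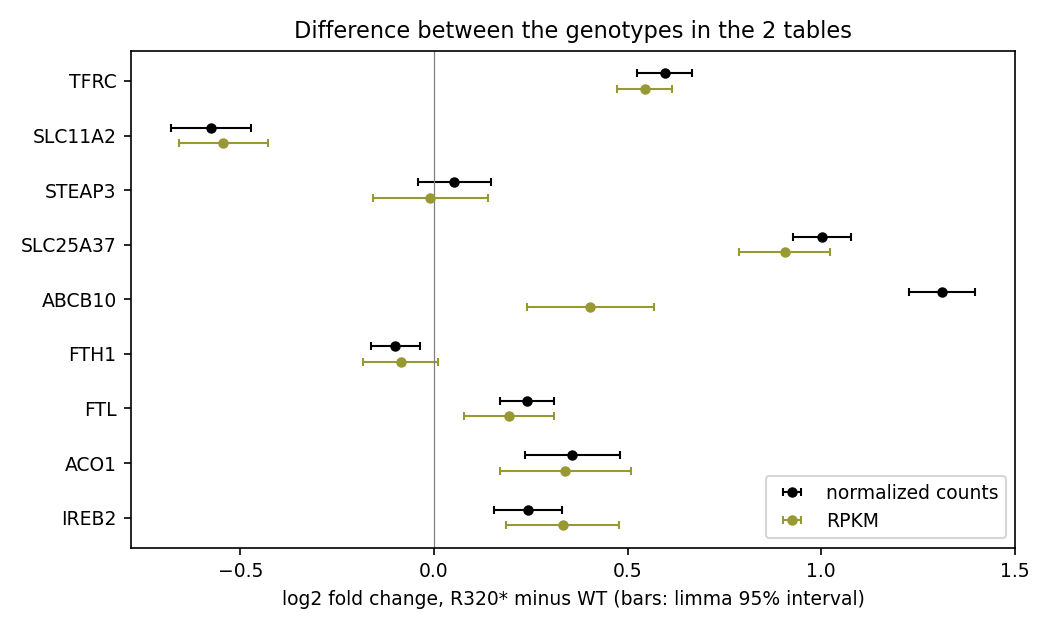
Log2 fold change, R320* minus WT, of each member with its limma 95% interval, from normalized counts (black, pseudocount 1) and from RPKM (olive, pseudocount 0.1). The intervals overlap for 8 members, and for ABCB10 they lie apart at 1.31 and 0.40.

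Because ABCB10 rose most in normalized counts, though not in RPKM, the 250 bases before its start are shown (RefSeq, GRCh38.p14, chr1:229558708-229558957, minus strand), with the GATA motif GATAA in capitals, 84 bases before the start.
ABCB10: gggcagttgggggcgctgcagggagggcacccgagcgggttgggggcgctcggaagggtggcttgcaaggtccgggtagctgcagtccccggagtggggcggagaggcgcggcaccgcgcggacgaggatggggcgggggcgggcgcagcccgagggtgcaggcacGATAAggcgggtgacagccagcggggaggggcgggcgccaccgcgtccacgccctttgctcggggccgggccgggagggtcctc
Promoter sequences of 300 bases were at hand for 7 of the 9 members, 11 sequences in all because SLC11A2 and IREB2 have several. On either strand GATAA was found in 4 of these 11 (1 each of ABCB10, STEAP3, SLC11A2 and IREB2) and in 22.7% of the 35116 RefSeq promoters, so it was present both in members that rose and in ones that did not. The RUNX motif TGTGGT was found in 0 of the 11 and in 13.1% of all. The GC box GGGCGG was found in 7 of the 11, 1 for each of the 7 members, and in 45% of all. These counts describe the letters of short windows and say nothing of binding.

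Ferritin transcripts were the most abundant of the 9 per length, and in normalized counts the heavy chain fell and the light chain rose. FTH1, the heavy chain with ferroxidase activity (Entrez gene 2495, chromosome 11, 61964285 to 61967634), went from 64910, 64954 and 65828 normalized counts in WT to 60765, 60902 and 60940 in R320*. FTH1 thus fell by 6.69%, which is small but exceeded the spread between libraries (log2 fold change -0.10, limma adjusted p = 0.00945). It was not called in RPKM, where the genotypes overlapped (log2 fold change -0.09, limma adjusted p = 0.159), nor without the intensity trend (limma adjusted p = 0.0722).

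FTL, the light chain that favours mineral formation (Entrez gene 2512, chromosome 19, 48965309 to 48966879), rose by 18.1%. Normalized counts stood at 56668, 57354 and 56385 in the WT libraries and at 69721, 65272 and 66294 in the R320* libraries, of which replicate 1 was the highest. They did not overlap, and limma gave a log2 fold change of 0.24 with an SE of 0.03 (adjusted p = 1.21e-05). In RPKM the log2 fold change was 0.19 (limma adjusted p = 0.0238), and there the call was lost without WT replicate 1 (limma adjusted p = 0.0723), 2 (0.0634) or 3 (0.0750) or R320* replicate 2 (0.0607).

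The balance of the chains was compared within each library, per length. The FTL to FTH1 ratio of RPKM was 0.971, 1.01 and 0.973 in the WT libraries and 1.30, 1.12 and 1.17 in the R320* libraries. The chains were near equal in the WT libraries, and each R320* library held more light than heavy chain transcript. The difference in log2 ratio was 0.28, with an exact two-sided permutation p of 0.1, the smallest that 3 against 3 libraries can give. Over the 4 ratios tested in all, adjusted values cannot be lower. In normalized counts the difference was 0.34.

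Both ferritin genes have many processed pseudogenes, so some of their reads could be divided differently by another counting method. The RPKM table lists 25 genes named as FTH1 pseudogenes, 10 of them at 0 in all libraries, whose summed RPKM was between 0.153% and 0.252% of that of FTH1. The 16 named for FTL, 12 of them at 0, came to between 0.144% and 0.273% of FTL. The levels listed for pseudogenes were therefore small beside those of the parents. The spans of FTH1, SLC11A2 and STEAP3 overlap those of BEST1, HIGD1C and STEAP3-AS1, which reached at most 43.9, 14.6 and 40.9 normalized counts in any library. Whether counting used strand is not given in the sources used here.

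The transcripts of both iron regulatory proteins rose. ACO1, which is an aconitase when it holds an iron-sulphur cluster and IRP1 when it does not (Entrez gene 48, chromosome 9, 32384643 to 32454769), had 1227, 1281 and 1256 normalized counts in the WT libraries and 1635, 1681 and 1510 in the R320* libraries. IREB2, which is degraded when iron is plentiful (Entrez gene 3658, chromosome 15, 78437431 to 78501453), had 3318, 3332 and 3296 against 4050, 3926 and 3790. Neither gene overlapped between the genotypes, and R320* replicate 3 was the lowest R320* library for both. By limma the log2 fold change of ACO1 was 0.36 with an SE of 0.06 (adjusted p = 6.35e-05), and that of IREB2 was 0.24 with an SE of 0.04 (adjusted p = 0.000112). In RPKM the values were 0.34 (limma adjusted p = 0.0114) and 0.33 (limma adjusted p = 0.00669).

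Between the iron regulatory proteins the RPKM ratio, ACO1 to IREB2, was 0.414, 0.413 and 0.428 in WT and 0.407, 0.448 and 0.408 in R320*, and the log2 ratio differed by 0.01 (exact two-sided permutation p = 1). In normalized counts the log2 difference was 0.12 (exact two-sided permutation p = 0.1). TFRC relative to FTH1 had RPKM ratios of 0.0977, 0.1001 and 0.0970 in WT and of 0.154, 0.143 and 0.161 in R320*, a log2 difference of 0.63 (exact two-sided permutation p = 0.1). The log2 ratio of SLC25A37 to ABCB10 differed by 0.50 in RPKM and by -0.31 in normalized counts (exact two-sided permutation p = 0.1 for each), since the fold of ABCB10 depends on the table.

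Levels spanned a wide range per length. In WT the order of mean RPKM was FTH1 (2515), FTL (2476), TFRC (247), SLC25A37 (63.9), ABCB10 (57.3), SLC11A2 (43.4), STEAP3 (31.5), IREB2 (26.6) and ACO1 (11.1). FTH1 and FTL, and SLC25A37 and ABCB10, were neighbours in this order whose libraries overlapped. In R320* FTL (2836) stood above FTH1 (2370) without overlap, and SLC25A37 (119.6) above ABCB10 (75.7) likewise. SLC11A2, at 29.7, dropped below IREB2 (33.5) and STEAP3 (31.3), although IREB2 overlapped STEAP3 and STEAP3 overlapped SLC11A2. Together the 9 genes took 0.542% to 0.544% of assigned reads in WT and 0.641% to 0.654% in R320*.

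**Figure D4:**
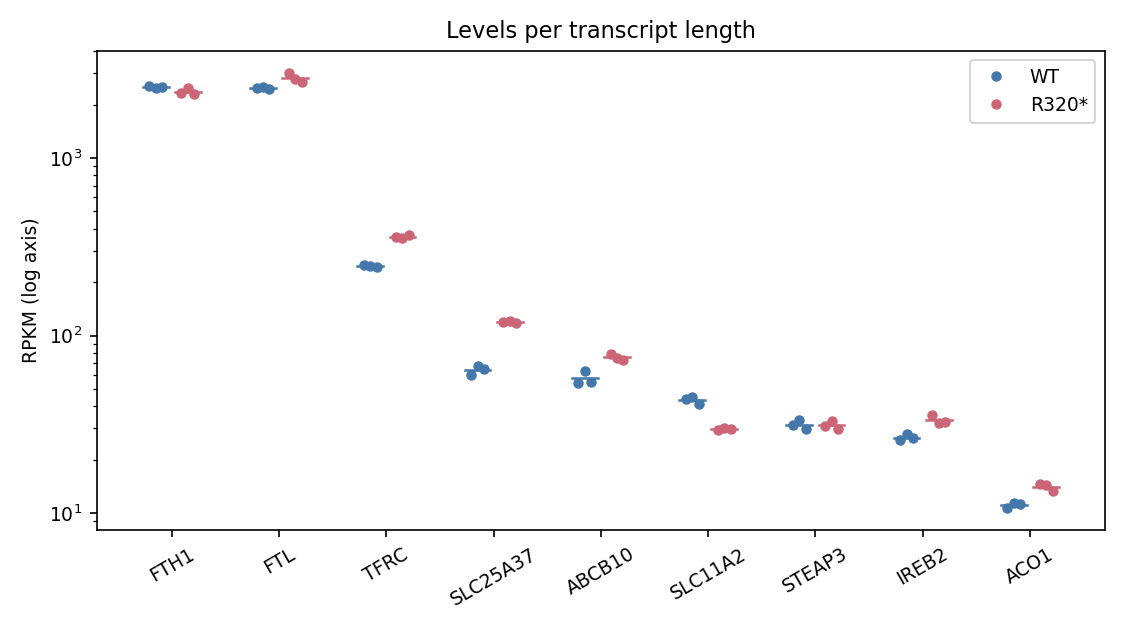
RPKM of the 9 genes in each library on a log axis, ordered by the WT mean; points are libraries and bars are means of 3. The WT means of FTH1 and FTL are 2515 and 2476, TFRC lies at 247 in WT and 361 in R320*, and the 6 others lie at or below 121.

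Genes whose counts followed TFRC and SLC25A37 most closely over the 6 libraries were found among 6078 others with a symbol and a mean of at least 1000 normalized counts. Likeness was the Euclidean distance of log2(normalized count + 1) after centring each gene. For TFRC the nearest were PRCP (distance 0.03), NOC3L (0.04) and SCD (0.06), and for SLC25A37 they were SLC2A1 (0.07), GOLM1 (0.07) and AGPAT4 (0.09). SCD, the stearoyl-CoA desaturase, had 42172 ± 830.5 in WT and 64309 ± 1094 in R320*, and SLC2A1, the glucose transporter GLUT1, had 4370 ± 101 and 8480 ± 137 (SD, n = 3). Among the members the closest pair was FTL and IREB2 (0.05). With 2 genotypes the distance mostly reads the size of the fold.

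Other genes of iron handling moved in both directions. Of 75 further genes listed, 65 were tested, and 15 rose, 25 fell and 25 were not called, which is 61.5% called against the 53.7% of all genes. Their median log2 fold change was -0.06. In RPKM 12 of 66 rose and 21 fell, where 31.9% of all genes tested were called.

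Among genes of the transferrin cycle and other uptake routes, 5 of 11 rose and 5 fell. SLC39A8 (ZIP8), a metal importer, rose most, from 3798, 3429 and 3781 normalized counts in WT to 7263, 6718 and 6508 in R320* (limma adjusted p = 2.09e-10, log2 fold change 0.90). The ferrireductase CYBRD1 rose by 0.48 and the folate and haem transporter SLC46A1 by 0.45 on the log2 scale. SLC39A14 (ZIP14), another metal importer, fell by 0.29, TF, transferrin itself, by 0.48 and SLC22A17, a lipocalin receptor, by 1.51, from 37.7 ± 1.81 to 13.6 ± 7.08 counts (SD, n = 3). The calls of TF and SLC22A17 were not shared by the RPKM table (limma adjusted p = 0.428 and 0.0533). The number of this list called lower was 2 without WT replicate 1, 3 without R320* replicate 2 and 3 without R320* replicate 3.

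Of the export and hepcidin genes 1 of 6 rose and 3 fell. The iron exporter ferroportin (SLC40A1), which has a 5′ element of its own, rose from 3021, 3156 and 3208 to 3968, 4121 and 3691 normalized counts (limma adjusted p = 2.13e-05, log2 fold change 0.33). Hephaestin (HEPH), the ferroxidase that works with it, fell from 3599, 3549 and 3376 to 2210, 2279 and 2294 (limma adjusted p = 4.48e-09, log2 fold change -0.63). Haemojuvelin (HJV) fell from 312 ± 22.7 to 113 ± 23.6 (SD, n = 3, log2 fold change -1.48). HAMP, which encodes hepcidin, was low throughout, with 29.4 ± 5.56 counts in WT and 9.47 ± 6.56 counts in R320* (SD, n = 3). Its log2 fold change was -1.72 (limma adjusted p = 0.00771, and 0.294 in RPKM).

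Genes that deliver iron to ferritin, act in its breakdown or control the degradation of other proteins of iron handling had 1 of 7 higher and 3 lower. The iron chaperone PCBP1 rose by 0.17 on the log2 scale, and its relative PCBP2 fell by 0.49, from 17079, 18191 and 17525 to 12318, 12850 and 12516 normalized counts. NDFIP1, an adaptor for ubiquitination of DMT1, fell by 0.59 and NEDD4L, a ubiquitin ligase, by 0.20, the latter without a call in RPKM (limma adjusted p = 0.678). For haem uptake, export and breakdown 2 of 7 rose and 4 fell. FLVCR1, a haem exporter, rose from 700, 694 and 722 to 1237, 1262 and 1201 (limma adjusted p = 1.74e-08, log2 fold change 0.81), and biliverdin reductase B (BLVRB) rose by 0.16 without a call in RPKM (limma adjusted p = 0.128). ABCG2, a porphyrin exporter, fell by 1.42, the haem transporter SLC48A1 by 0.75 and the haem-binding PGRMC1 by 0.32.

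Mitochondrial iron import and iron-sulphur cluster assembly had 5 of 19 higher and 6 lower. SLC25A28 (mitoferrin-2), the relative of SLC25A37, rose from 1054 ± 56.9 to 1332 ± 92.8 (SD, n = 3, log2 fold change 0.34, limma adjusted p = 0.000433). GLRX5, a glutaredoxin of cluster transfer, rose by 0.38 and IBA57 by 0.44, the latter without a call in RPKM (limma adjusted p = 0.610). The scaffold ISCU fell from 1586 ± 98.7 to 1019 ± 49.6 (limma adjusted p = 3.32e-07, log2 fold change -0.64), the chaperone HSPA9 fell by 0.39 and the carrier NFU1 by 0.37. In the cytosolic assembly pathway 1 of 10 rose (MMS19, by 0.20), and 3 fell (CIAO2B by 0.26, CIAO2A by 0.23 and CIAPIN1 by 0.19). CIAPIN1 was not called in RPKM (limma adjusted p = 0.416). Without WT replicate 3, R320* replicate 1 or R320* replicate 3 the number of this list called higher was 2.

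Several of these falls, like that of SLC11A2, lay among lowered neighbours. The median log2 fold change of the 50 nearest tested genes was -0.68 around SLC48A1, -0.66 around PCBP2 and -0.64 around ISCU, all on chromosome 12, and -0.58 around NDFIP1 and -0.36 around HSPA9, on chromosome 5. It was -0.07 around HEPH and around HJV and -0.09 around ABCG2, all of which fell. Other genes that fell had medians of -0.23 (PGRMC1) and -0.17 (SLC22A17), and of 0.20 (TF), 0.20 (HAMP) and 0.18 (CIAO2B).

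Apart from the members, 6 further transcripts reported to carry an iron-responsive element were tested, and 1 rose (SLC40A1) and 1 fell (CDC42BPA, log2 fold change -0.31, limma adjusted p = 4.14e-06). ALAS2, the erythroid first enzyme of haem synthesis, had a log2 fold change of -0.02 (SE 0.05), EPAS1 of -0.03 and CDC14A of 0.03 (limma adjusted p = 0.801, 0.726 and 0.726). The search described above found no match in CDC42BPA. Among the genes named here, by the end of the transcript at which an element is reported, those with one at the 5′ end thus included 2 that rose (FTL and SLC40A1), 1 that fell (FTH1) and 2 not called (ALAS2 and EPAS1). Those with one at the 3′ end included 1 that rose (TFRC), 2 that fell (SLC11A2 and CDC42BPA) and 1 not called (CDC14A). SLC25A37, which rose and for which no search result is given, was not placed in either group. Protein levels, translation and iron itself were not measured here.

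**Figure D5:**
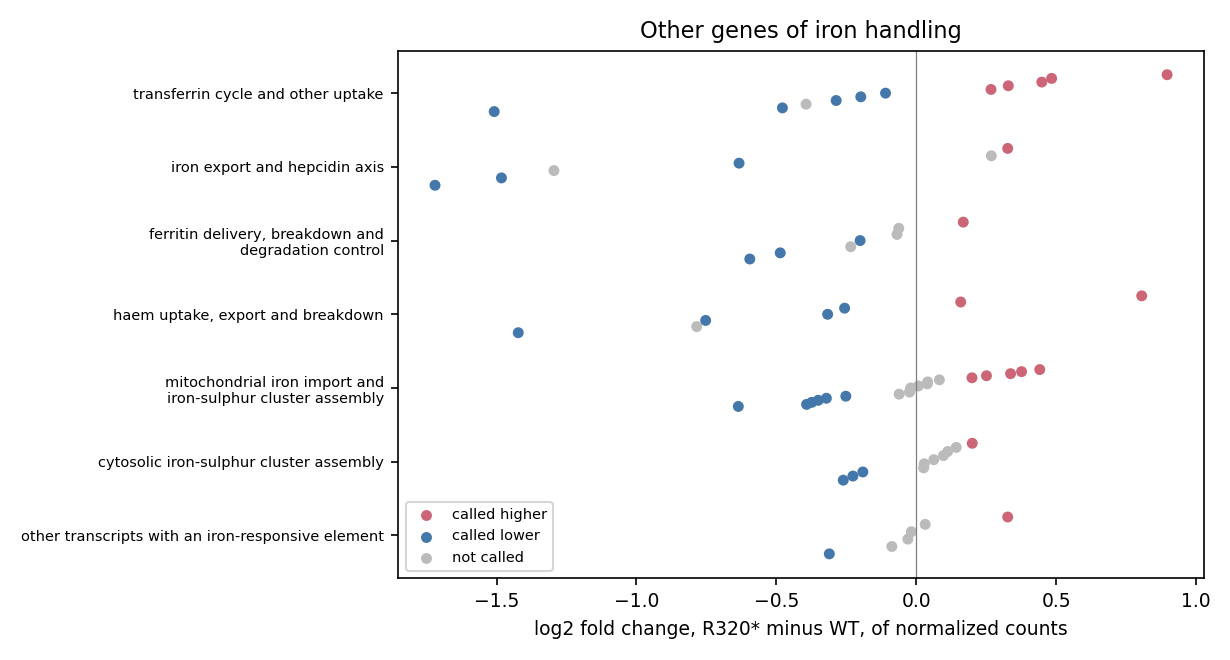
Log2 fold change, R320* minus WT, of the tested genes of 7 further lists of iron handling, with points coloured by whether limma's adjusted p was below 0.05 and in which direction. Each list holds both genes that rose and genes that fell, with 15 higher and 25 lower among the 65 distinct genes tested.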

How the data were processed

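RNA of 6 K562 libraries was measured by RNA-seq. The submitters' processing notes name hg38 and the tools HISAT2, featureCounts, Salmon and DESeq2; the tool behind each table is not given in the sources used here. The deposited signal values are normalized read counts per Entrez gene, made by the authors. They were whole multiples of 1 value per library (100% within 1e-06), so reads could be recovered; 1 read stood for 0.953 to 1.05 normalized counts. The authors' other table gives RPKM of Ensembl genes as deposited, with column sums of 721735 to 786389 and no read numbers, so its depth is unknown. Depth in the count table was 29058471 to 31306435 reads per library, and replicates differed by more than counting error (chi-square per gene 5.05 to 8.26).

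RefSeq gave symbols to 27745 of 28395 Entrez identifiers. limma 3.58.1 in R 4.3.3 was fitted with intensity trend to log2(normalized count + 1), keeping genes that reached 10 in 3 or more libraries, and to log2(RPKM + 0.1), keeping genes that reached 0.5 in 3 or more. Adjustment was by Benjamini-Hochberg over all genes kept, with a threshold of 0.05. Other pseudocounts, filters and scalings, no trend, a block for the replicate number, leaving out 1 library, and edgeR 4.0.16 and DESeq2 1.42.0 on recovered reads were tried. Fits were tested on simulated data. Genes named are the 9 members, up to 3 called genes per direction and list with the largest change (for the iron-responsive list the tested ones, of which 1 is not reported here), and the 3 nearest to TFRC and to SLC25A37 among genes with a mean of at least 1000. The members and lists were chosen with earlier results of these data known. The comparison of counts per unit of RPKM, the neighbours of genes other than members and the sequence searches were added after the data were seen. Python 3.11.15, SciPy 1.17.1 and matplotlib 3.10.9 were used.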

Additional observations from a re-analysis of the deposited data

How the results depend on the processing

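Of the log2 fold changes of members under the alternatives to the count fit, 159 kept their direction and their side of the threshold. FTH1 kept its direction and lost its call in 2 of them: with no intensity trend it was at -0.10 (limma adjusted p = 0.0722), and with the RPKM table at -0.086. Either setting left 1 member called lower in place of 2. STEAP3, which had no call, was at -0.0094 in the RPKM table. Starting from the RPKM table, FTL lost its call with no filter (0.19, limma adjusted p = 0.0557), and with 1 library left out it ranged from 0.14 to 0.24. STEAP3 there ranged from -0.049 to 0.030, and 5 to 6 members were called higher. The log2 ratio of ACO1 to IREB2 differed by 0.12 in normalized counts, and in RPKM by -0.038 to 0.032 with 1 library left out; that of SLC25A37 to ABCB10 differed by -0.31 in normalized counts. With 10 neighbours on each side the medians around TFRC and FTL were -0.022 and 0.051. The cause of these differences was not tested. A replicate block changed no call of a member (FTH1 limma adjusted p = 0.0102), gave 16 other iron genes higher and 26 lower, and called 7854 genes in place of 7685. Over all genes tested, same-numbered libraries did not deviate together (correlations of 0.032, -0.0031 and -0.0033). This cannot show that the libraries share no culture or preparation. The labels do not say what a shared number means, so pairing stays unknown. The members had 1227 or more normalized counts in every library, and the part of counting error in the spread between their libraries was not tested.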
